A study of Mus musculus with 4 samples.

Results

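Transcripts of Mif, its homologue Ddt, the receptor subunits Cd74 and Cd44 and the intracellular MIF partner Cops5 were followed in neutrophils that had or lacked the Mif gene. The 5 genes were taken by gene name, each once per transcript and once summed over its gene identifier. They make up 5 of the 47729 genes and 22 of the 115220 transcripts in the data. Neutrophils had been sorted by flow cytometry from bone marrow and spleen of SKG mice, a BALB/c strain whose mutation of the T cell kinase gene Zap70 makes it prone to arthritis. One group, wild type, kept Mif and the other, Mif KO, lacked it, with 2 libraries each. All 4 libraries came from mice on the SKG background, 8 weeks after curdlan, a fungal beta-glucan that sets off the disease, so both groups carry the strain mutation and the treatment. The sources used here do not give how the Mif allele was made, the age of the mice, the mix of marrow and spleen, or whether the libraries of a group came from separate animals. The p-values below therefore measure only the spread between these libraries.

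The wild-type libraries ran in lane 2 and the Mif KO libraries in lane 1, and the steps between low values put the depth of the Mif KO libraries at 4.83 to 5.28 times that of wild-type replicate 2, against 1.23 times for wild-type replicate 1. Genotype, lane and depth cannot be told apart. The 12 neutrophil markers checked summed to between 108030 and 114275 FPKM (fragments per kilobase of transcript, scaled to library size) in every library, most of it S100a8 and S100a9. Of the 10 tested, 5 were higher and 5 lower in Mif KO. In limma 4 had an unadjusted p under 0.05, all higher in Mif KO (Ly6g, Mmp8, Retnlg and Ngp), against 8.35% of all genes. S100a8 measured 41370 and 38838 FPKM in wild type against 35980 and 36080 FPKM in Mif KO libraries. S100a9 was likewise lower, at 38906 and 38638 FPKM against 34886 and 35544 FPKM. Among the 4, the surface marker Ly6g passed, with 519 and 491 FPKM in wild type against 918 and 936 FPKM in Mif KO libraries (0.88 ± 0.07, limma adjusted p = 0.0364). The primary granule genes Elane and Mpo of immature cells lay below 1 FPKM in all 4. The B cell and plasma cell list summed to 196 and 159 FPKM in wild type, against 35.6 and 41.3 FPKM in Mif KO. Almost all of that sum came from Igkc, Ighm and Jchain, while the B cell genes Ms4a1 and Pax5 were near 0 in every library. These 3 were the only tested genes of the list, and all 3 passed, lower in Mif KO, where 0.342% of all genes passed. Their log2 differences were -2.29 for Igkc, -1.96 for Ighm and -1.84 for Jchain (limma adjusted p = 0.0226, 0.0423 and 0.0261). In bulk samples fewer cells of a type and less RNA per cell cannot be told apart.

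Macrophage migration inhibitory factor (MIF) is a small secreted cytokine that cells also hold ready-made in the cytoplasm. D-dopachrome tautomerase, the product of Ddt, shares its fold and binds the same receptor. CD74, better known as the invariant chain that escorts MHC class II molecules, binds MIF at the cell surface, and CD44, a receptor for hyaluronan, carries the signal inward. MIF also signals through the chemokine receptors CXCR2 and CXCR4, both of which steer neutrophils between marrow, blood and tissue. Inside cells MIF binds COPS5, also called JAB1, the catalytic subunit of the COP9 signalosome, which removes the small protein NEDD8 from cullin ubiquitin ligases.

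The start of the Mif coding sequence is shown beside its homologue and its closest processed copy, because reads of a copy could be listed under Mif or the reverse. Capitals in the Ddt and Gm10169 sequences mark bases equal to Mif at the same position, without gaps, and all 3 are from GENCODE transcripts on GRCm38.
Mif, chr10:75860109-75860168, minus strand: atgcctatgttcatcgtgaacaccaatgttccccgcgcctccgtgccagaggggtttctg
Ddt, chr10:75773264-75773323, minus strand: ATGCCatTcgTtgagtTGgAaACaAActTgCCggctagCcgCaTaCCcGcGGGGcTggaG
Gm10169, chr7:29965506-29965565, minus strand: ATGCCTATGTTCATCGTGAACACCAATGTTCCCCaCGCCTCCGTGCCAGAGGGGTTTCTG
Ddt shares 29 of these 60 bases with Mif and Gm10169 shares 59. Over their whole coding sequences, of 345 bases in Mif and 354 in Ddt without the stop codon, the pair had 51.7% identity in a gapped alignment, and their longest identical run was 10 bases. Gm10169 had 99.1% identity to the Mif coding sequence and an identical run of 255 bases. By sequence, 9 processed pseudogenes covered most of the Mif coding sequence and none covered that of Ddt. Of the 9, 7 have a row in the data and 1, Gm10169, was above 0 in any library.

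Mif (ENSMUSG00000033307, chr10:75859353-75860240, minus strand, 3 exons in its listed transcript Mif-201) was the lowest of the 5 genes in the Mif KO libraries and among the 2 lowest in wild type. It measured 0.882 and 2.88 FPKM in the first and second wild-type library and was listed at 0 in both Mif KO libraries, as its genotype label says. In the deeper Mif KO libraries, 3 of the smallest steps would have read as 0.0234 and 0.0255 FPKM at the length of Mif, whereas the wild-type values made 26.4 and 70.0 of the larger steps of their own libraries. The wild-type libraries differed from each other by over 3-fold in a gene that reached the minimum for testing only through its wild-type values, so this is a check of the label and not a finding. On the log2(FPKM + 1) scale the difference, Mif KO minus wild type here and throughout, was -1.43 ± 0.35 (SE, n = 2 per group; limma p adjusted by Benjamini-Hochberg over all genes tested = 0.161), and it was -4.10 with a pseudocount of 0.1 (adjusted p = 0.106). Without wild-type replicate 1 it was -1.96 and passed (limma adjusted p = 9.4e-10), as did 2675 genes in all in that fit, against 2938 without wild-type replicate 2 and 35 with all 4 libraries. Without wild-type replicate 2 Mif fell under the minimum for testing, a mean of 1 FPKM in either group.

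The pseudogene Gm10169 (chr7:29965218-29965565) measured 0 and 0.158 FPKM in the first and second wild-type library, against 0.0164 and 0 FPKM in the first and second Mif KO library. Its highest value lay in the library with the highest Mif value. At the length of Gm10169, though, each value above 0 lay under 3 of the smallest steps of its library. No link to Mif can be read from them. Mif-ps3, a pseudogene that carries the name of Mif and has a row in the data, was listed at 0 in all 4 libraries although it shares a run of 59 identical bases with Mif. How reads that match several places were handled is not given in the sources used here.

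**Figure D1:**
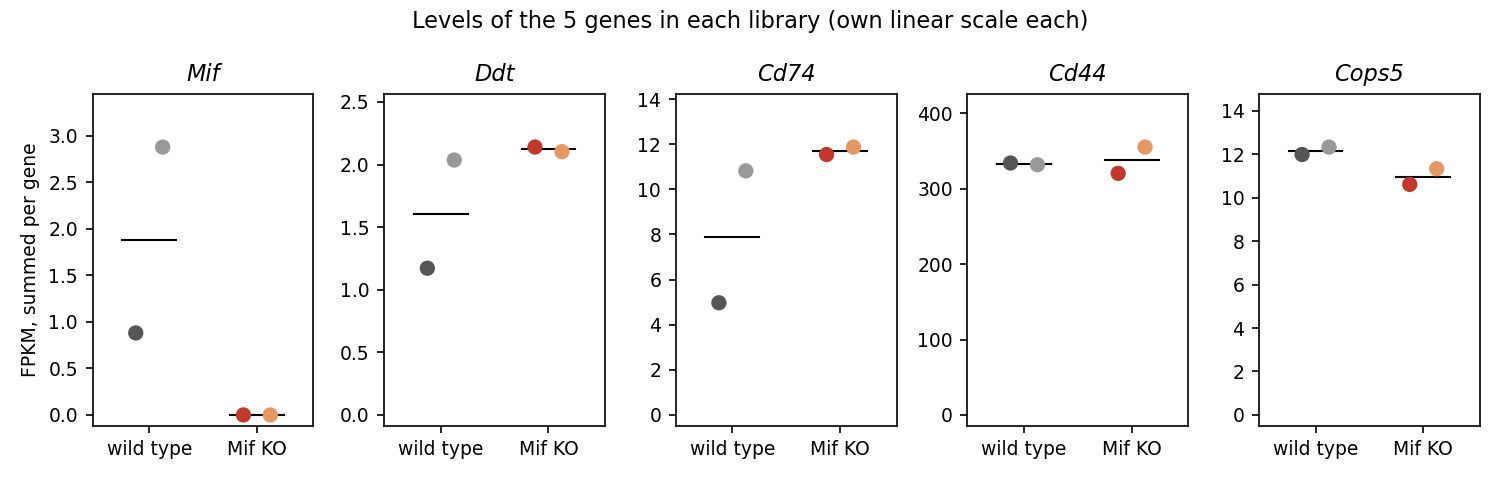
Level of Mif, Ddt, Cd74, Cd44 and Cops5 in each library, with 1 panel per gene, the library groups on the horizontal axis and FPKM on a vertical axis that starts at 0 and differs between panels; points are single libraries and bars the group means. Mif is at 0 in both Mif KO libraries, Cd44 stays between 320 and 355 FPKM, and the low point of Cd74 (4.97 FPKM) and of Ddt (1.17 FPKM) is wild-type replicate 1.

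Ddt (ENSMUSG00000001666, chr10:75771230-75773414, minus strand) lies 85.9 kb from Mif on the same strand. It measured 1.17 and 2.04 FPKM in the first and second wild-type library, against 2.14 and 2.1 FPKM in the first and second Mif KO library. The other libraries were thus within 2.04 to 2.14 FPKM and wild-type replicate 1 was low. The log2 difference was 0.28 ± 0.18 (limma adjusted p = 0.468). It was 0.040 without wild-type replicate 1 (adjusted p = 0.810) and 0.52 without wild-type replicate 2 (adjusted p = 0.000663). The coding transcript Ddt-201 made up 96.8% and 95.3% of the gene's FPKM in wild-type and 98.4% and 98.3% in Mif KO libraries. Ddt-202 made up the rest and was too low to test. A readthrough gene that overlaps Ddt, Gm20441, did not exceed 0.0242 FPKM in any library.

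The receptor subunits and Cops5 were ordered by level as Cd44, then Cops5 and Cd74, then the ligands. In FPKM, which is per length, Cd44 exceeded Cops5 between 26.9- and 31.3-fold in each library. Cops5 and Cd74 were neighbours whose order turned over: Cops5 was 2.41 and 1.14 times Cd74 in wild-type replicates 1 and 2 and 0.919 and 0.955 times Cd74 in Mif KO replicates 1 and 2. Cd74 exceeded Ddt between 4.24- and 5.64-fold in the 4 libraries, a narrower range than that of either gene against Cd44. Mif and Ddt could not be ordered in wild type, where Mif was 0.752 times Ddt in replicate 1 and 1.41 times Ddt in replicate 2. Cd44 ranked between 131 and 147 among the genes of each library.

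None of the 5 genes passed an adjusted p under 0.05, where 0.342% of the 10221 genes tested did. Mif had an unadjusted p under 0.05 (0.0103), as did 17.9% of genes in either direction and 9.56% in the lower one. In 2 of the 5, Ddt and Cd74, both Mif KO libraries lay above both wild-type libraries, which 29.6% of all genes did. In 2 others, Mif and Cops5, both lay below, which 23.1% of all genes did. For Mif the lower side follows from the genotype, so only Cops5 is an observation here. The median log2 difference was 0.02 over the 5 genes and 0.02 over all genes tested. Of the 22 transcripts, 14 reached the minimum for testing and none passed, against 0.239% of 19696 transcripts tested. The unadjusted p was under 0.05 and lower for 3 of the 14 (Mif-201, Cd44-202 and Cd44-209), against 12.2% of all transcripts. Mif-201 is in this count and in the 6 below only by its genotype, and is no finding in either. The unadjusted p was under 0.05 and higher for 1 of the 14 (Cd74-202), against 6.96%. Both Mif KO libraries lay above both wild-type libraries in 3 of the 14, against 24.2% of all transcripts, and below in 6, against 32%. Cd44-205 is also among the 6. It reached the minimum for testing only through its wild-type mean (1.69 FPKM, against 0.310 FPKM in Mif KO), so its lower side is no finding.

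Cd74 (ENSMUSG00000024610, chr18:60803848-60812652, plus strand) measured 4.97 and 10.8 FPKM in the first and second wild-type library, against 11.5 and 11.9 FPKM in the first and second Mif KO library. Wild-type replicate 1 was low and the other 3 libraries lay close together. The log2 difference was 0.60 ± 0.33 (limma adjusted p = 0.408). Without wild-type replicate 1 it was 0.10 (adjusted p = 0.406), and without wild-type replicate 2 it was 1.09 (adjusted p = 7.9e-09). The size and the call for Cd74 thus depended on which wild-type library was set against the Mif KO libraries.

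The 3 listed Cd74 transcripts split by one exon of 192 bases (chr18:60811294-60811485), which marks the long form of the invariant chain and encodes a thyroglobulin type domain known to inhibit cathepsin L. The short form Cd74-201 measured 3.09 and 7.69 FPKM in wild type against 6.13 and 7.23 FPKM in Mif KO libraries, so the groups overlapped (0.36 ± 0.41; limma adjusted p = 0.647). The long form Cd74-202 measured 1.88 and 2.47 FPKM in wild type against 5.0 and 4.13 FPKM in Mif KO libraries, without overlap. Its log2 difference of 0.81 ± 0.17 did not pass (limma adjusted p = 0.180) and ranged from 0.68 to 1.04 over the alternatives, with adjusted p from 0.107 to 0.752. In the authors' deposited table Cd74-202 had a fold of 1.76 with a p of 0.0437 and an adjusted p of 0.434. Cd74-203, the remaining transcript, also holds the exon and measured 0 and 0.662 FPKM in wild type against 0.404 and 0.516 FPKM in Mif KO libraries.

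Transcripts with the exon together made up 37.8% and 28.9% of Cd74 in wild-type and 46.9% and 39.1% in Mif KO libraries. Mif KO replicate 2 was only just above wild-type replicate 1 in this share. The ratio of group means, Mif KO over wild type, was 2.01 for transcripts with the exon and 1.24 for the form without it. In limma on the ratio of each transcript to the rest of its gene, the log2 difference of Cd74-202 was 0.42 ± 0.40 (adjusted p = 0.565), where 0.325% of 14481 transcripts passed. The ratio test thus did not separate the difference in transcript use from the spread between libraries. In simulated data it called 0% of 2-fold changes of a gene's main transcript, so a change of that size could have been missed. The diffSplice test of limma gave Cd74 an adjusted p of 0.541, where it called 16.1% of 3879 genes. It called Cd74 without wild-type replicate 1, a fit that leaves 1 wild-type library. In simulated data 46.3% of diffSplice calls were unchanged genes.

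**Figure D2:**
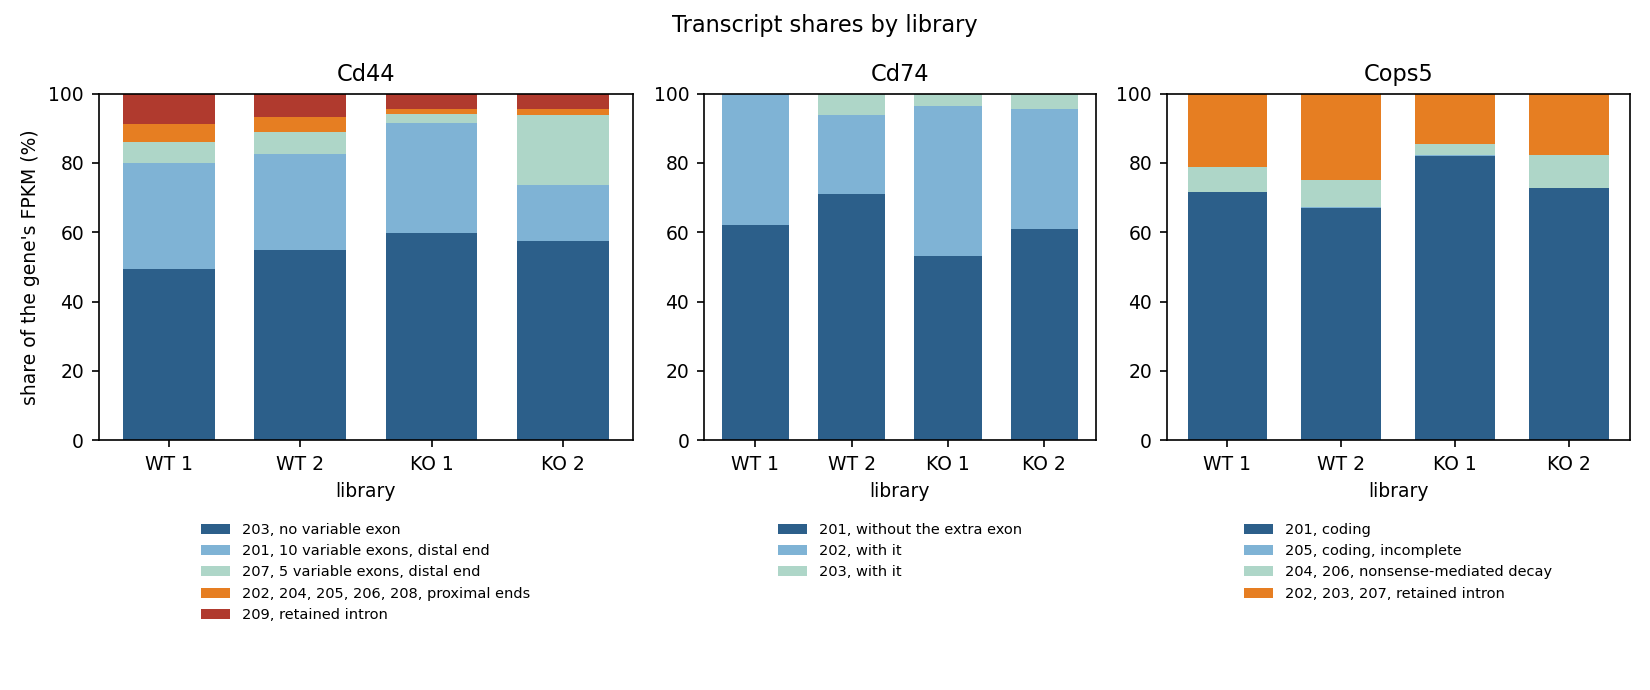
Share of each gene's FPKM taken by groups of its transcripts, with library on the horizontal axis and percent on the vertical axis, for Cd44, Cd74 and Cops5; each bar is 1 library and its colours stack to 100%. The band of low variable-exon transcripts of Cd44 is between 4.31% and 5.09% in wild-type and between 1.50% and 1.67% in Mif KO libraries, and the 2 distal-end transcripts trade places in Mif KO replicate 2.

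Genes that process CD74 or share its pathway were listed for comparison. Of 14 such genes 12 were tested, none passed, 3 had an unadjusted p under 0.05, all higher (8.35% of all genes did so), and 9 of the 12 were higher, at a median difference of 0.13. Ctss, the protease cathepsin S that trims the invariant chain, measured 6.10 and 9.21 FPKM in wild type against 14.1 and 15.2 FPKM in Mif KO libraries (0.88 ± 0.19; limma adjusted p = 0.144). The class II chain H2-Ab1 measured 0.550 and 1.57 FPKM in wild type against 2.17 and 2.31 FPKM in Mif KO libraries (adjusted p = 0.258). Sppl2a, the membrane protease that clears the last fragment of CD74, stood at 14.6 and 13.2 FPKM against 16.1 and 17.2 FPKM (adjusted p = 0.252). The fourth gene by p, H2-DMa, which loads peptide onto class II, stood at 0.744 and 1.02 FPKM against 1.42 and 1.25 FPKM (adjusted p = 0.286). H2-DMa reached the minimum for testing only through its Mif KO values. Ciita, the master activator of class II genes and of Cd74, did not exceed 0.0702 FPKM in any library.

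Wild-type replicate 1 was the lowest library for 9 of the 12 genes of this list, against 38.7% of all genes tested. It was also the lowest for all 8 tested monocyte and macrophage markers and for all 5 tested erythroid markers. The monocyte and macrophage list summed to 48.3 and 65.3 FPKM in wild type against 55.6 and 62.4 FPKM in Mif KO libraries, and 7 of its 8 tested genes had a positive difference, none with an unadjusted p under 0.05. The erythroid list summed to 3.98 and 16.5 FPKM in wild type against 14.2 and 14.5 FPKM in Mif KO libraries. The dendritic cell list summed to 3.14 and 6.91 FPKM against 4.36 and 4.77 FPKM, most of it Itgax. Its marker Clec9a measured 0.434 and 0.415 FPKM in wild type against 0.223 and 0.283 FPKM in Mif KO libraries. Flt3, Zbtb46 and Batf3 did not exceed 0.0433 FPKM, and Xcr1, Siglech and Cd209a were at 0 in every library. The B cell and plasma cell list, as given above, summed to 196 and 159 FPKM in wild type against 35.6 and 41.3 FPKM in Mif KO libraries. The part of any of these cell types in the Cd74 values was not tested.

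**Figure D3:**
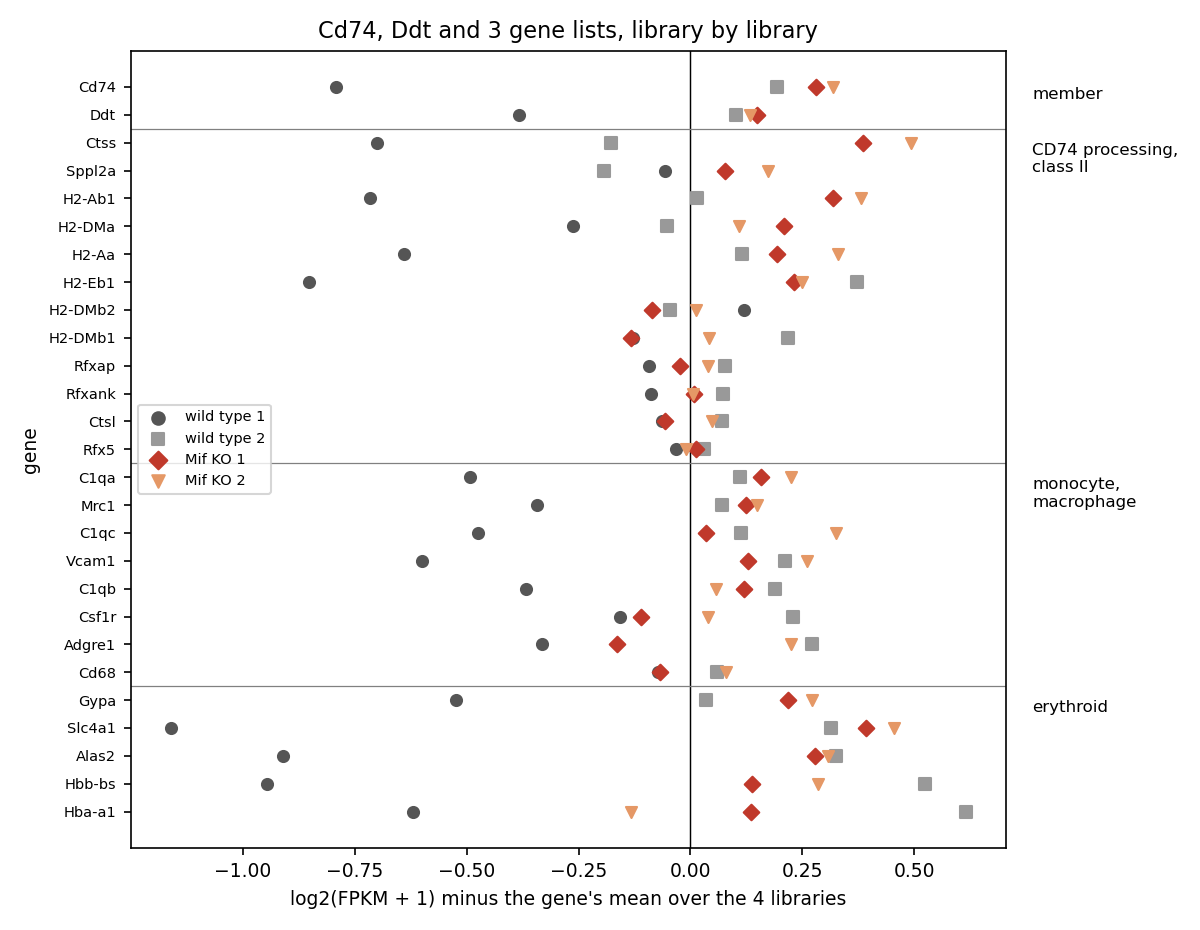
Log2(FPKM + 1) of each gene minus its own mean over the 4 libraries (horizontal axis) for Cd74, Ddt and the tested genes of 3 lists (rows); each marker is 1 library. Wild-type replicate 1 stands left of the other libraries in Cd74 (-0.79), in Ddt (-0.38), in most class II genes and in the erythroid markers, while the other 3 libraries lie close together for Cd74 (0.19 to 0.32).

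Cd44 (ENSMUSG00000005087, chr2:102811141-102901665, minus strand) was the most abundant of the 5 genes and did not differ beyond the spread between libraries. It measured 334 and 332 FPKM in wild type against 320 and 355 FPKM in Mif KO libraries, and the wild-type values lay inside the Mif KO range. The log2 difference was 0.02 ± 0.08 (limma adjusted p = 0.918). Its sign turned to -0.021 after rescaling without the abundant 7SL and 7SK RNAs, to -0.0049 with median-ratio scaling and to -0.055 without Mif KO replicate 2.

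Cd44 is known for its 10 variable exons, which lie between the fifth exon and the common 3′ part of the gene and lengthen the stem of the receptor. Blood cells are known to make mainly the standard form without them. The joins after the fifth exon (chr2:102853015-102853236) tell the transcripts apart. Below, lower case is the end of the fifth exon and capitals are the start of the next exon in each transcript, from GENCODE on GRCm38.
Cd44-203, standard form, next exon chr2:102828542-102828610: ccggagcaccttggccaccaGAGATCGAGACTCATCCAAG
Cd44-206, next exon chr2:102831330-102831536, the last variable exon: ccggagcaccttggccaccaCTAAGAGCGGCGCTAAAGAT
Cd44-202, next exon chr2:102839358-102839477, the sixth variable exon: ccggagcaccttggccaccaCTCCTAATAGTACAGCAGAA
Cd44-201, next exon chr2:102848657-102848782, the first variable exon: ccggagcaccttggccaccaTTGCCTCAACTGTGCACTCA
The files give FPKM per transcript and no counts over these joins. The last variable exon is in 7 of the 8 coding transcripts, all but the standard form.

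The standard form Cd44-203 was the largest transcript in every library. It measured 165 and 182 FPKM in wild type against 191 and 204 FPKM in Mif KO libraries, without overlap (0.19 ± 0.08; limma adjusted p = 0.323). Its share of the gene was 49.4% and 54.8% in wild-type and 59.7% and 57.5% in Mif KO libraries. Its ratio to the rest of the gene differed by 0.38 on the log2 scale (adjusted p = 0.312).

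Cd44-202, a transcript with 5 of the 10 variable exons, showed the largest separation relative to its error of the 14 transcripts tested. It measured 6.47 and 6.94 FPKM in wild type against 1.53 and 1.62 FPKM in Mif KO libraries. The replicates of each group lay close together and the groups were 4.25-fold apart in their means. The log2 difference was -1.58 ± 0.11 (n = 2 per group; limma adjusted p = 0.0599), rank 62 by p among the transcripts tested, which just missed the threshold. Over the alternatives it ranged from -2.02 to -1.54 with adjusted p from 0.0520 to 0.403 and passed under none. Its share of the gene was 1.94% and 2.09% in wild-type and 0.479% and 0.457% in Mif KO libraries, and its ratio to the rest of Cd44 differed by -1.62 ± 0.15 (limma adjusted p = 0.0841). In the authors' deposited table Cd44-202 had a fold of 0.335, a p of 0.00101 and an adjusted p of 0.160.

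The coding transcripts with variable exons and still earlier 3′ ends were also scarce. They end at chr2:102814120 to 102814133, short of the standard form (102812547) and of Cd44-202 (102812530). Their 1305 to 1981 bases are almost all coding sequence (1302 to 1971 bases). Cd44-208, with 7 variable exons, measured 5.33 and 2.26 FPKM in wild type against 0.850 and 1.42 FPKM in Mif KO libraries (limma adjusted p = 0.262). Cd44-205, with 3, stood at 2.5 and 0.878 FPKM against 0.249 and 0.371 FPKM (adjusted p = 0.266). Cd44-205 reached the minimum for testing only through its wild-type mean (1.69 FPKM, against 0.310 FPKM in Mif KO). Without wild-type replicate 1 it fell under that minimum. Cd44-204, with 2, stood at 0.486 and 1.45 FPKM against 0.0693 and 0.129 FPKM and was too low to test. In these 3 both Mif KO libraries lay below both wild-type libraries, as in Cd44-202, and as had 32% of all transcripts tested. Cd44-206, whose single variable exon is the last one, overlapped between the groups, at 2.23 and 2.77 FPKM against 2.09 and 2.37 FPKM (-0.11; adjusted p = 0.682).

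Cd44-202 and the transcripts with earlier ends were summed as a class of 5, although their 3′ ends differ. The class measured 17.0 and 14.3 FPKM in wild type against 4.79 and 5.91 FPKM in Mif KO libraries. This was 5.09% and 4.31% of Cd44 in wild-type and 1.50% and 1.67% in Mif KO libraries, a 2.92-fold difference in mean FPKM given here as a description, since the class was made from the annotation after earlier results were known. Among all protein-coding transcripts tested, 40.6% were lower in the Mif KO libraries and 6.08% were lower with an unadjusted p under 0.05.

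Most FPKM assigned to variable-exon transcripts went to another pair. Cd44-201, with all 10 variable exons, measured 102 and 92.0 FPKM in wild type against 102 and 57.2 FPKM in Mif KO replicates 1 and 2. Cd44-207, with 5, measured 20.4 and 20.8 FPKM in wild type against 8.33 and 72.0 FPKM in Mif KO replicates 1 and 2. The Mif KO libraries disagreed on each transcript, while the pair summed to a steady 122 and 113 FPKM in wild type against 110 and 129 FPKM in Mif KO libraries. The log2 difference of Cd44-207 was 0.27 ± 1.08 (limma adjusted p = 0.898), and -1.21 without Mif KO replicate 2.

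Both transcripts of the pair, and no other, hold the last 1389 bases of the gene (chr2:102811141-102812529). Reads over that 3′ stretch can be assigned only to Cd44-201 or Cd44-207, whichever variable exons their molecules held. Their FPKM therefore does not by itself measure inclusion of variable exons, and the source of their reads was not tested. The pair took 34.0% to 36.6% of the gene's FPKM in the 4 libraries. The diffSplice test over 8 Cd44 transcripts gave an adjusted p of 0.575. It called Cd44 without Mif KO replicate 1, when Mif KO replicate 2 with its high Cd44-207 stood alone.

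The ninth transcript, Cd44-209, retains an intron and has no coding sequence. It measured 29.4 and 22.7 FPKM in wild type against 14.0 and 15.9 FPKM in Mif KO libraries, without overlap (-0.75 ± 0.16; limma adjusted p = 0.188). Its share of Cd44 was 8.81% and 6.85% in wild-type and 4.38% and 4.46% in Mif KO libraries. The same direction ran through transcripts of this kind as a class. Of 3400 retained-intron transcripts tested, 87.1% were lower in the Mif KO libraries, with a median log2 difference of -0.32, and 24.7% were lower with an unadjusted p under 0.05. For protein-coding transcripts the median was 0.05. Cd44-209 thus lay in the direction of its class but further out than the class median (-0.75 against -0.32). The parts of lane, depth and genotype in the shift of the class cannot be told apart.

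Genes that are known to act on the choice of Cd44 exons did not pass either. Of 10 listed, 8 were tested, 4 were higher and 4 lower, and the median was 0.01. Tra2b, a splicing factor of the SR family, had the lowest p, with 30.4 and 29.2 FPKM in wild type against 23.4 and 23.8 FPKM in Mif KO libraries (-0.32 ± 0.07; limma adjusted p = 0.146). Hnrnpa1, Srsf3 and Ybx1 followed with adjusted p of 0.358, 0.386 and 0.407. Esrp1, the epithelial factor that favours variable exons, was listed at 0 in all 4 libraries.

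Partners of the CD44 protein were also listed. Of 16 such genes 12 were tested, none passed and 9 of the 12 were higher, at a median difference of 0.07. Mmp9, the gelatinase that docks on CD44, measured 1066 and 997 FPKM in wild type against 1258 and 1263 FPKM in Mif KO libraries (0.29 ± 0.07; limma adjusted p = 0.160). The next by p were the membrane linker Rdx (adjusted p = 0.426), the granule proteoglycan Srgn (adjusted p = 0.429) and the ligand osteopontin, Spp1 (adjusted p = 0.487).

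Of the other MIF receptors, Cxcr2 was listed above Cd44 and Cxcr4 below it in every library. Cxcr2 measured 455 and 500 FPKM in wild type against 449 and 499 FPKM in Mif KO libraries (-0.01 ± 0.09; limma adjusted p = 0.961). Cxcr4 stood at 163 and 192 FPKM against 193 and 201 FPKM (0.16 ± 0.10; adjusted p = 0.476). Ackr3, an atypical receptor that also binds MIF, was at 0 in 3 libraries and at 0.00265 FPKM in Mif KO replicate 2. The neutrophils of both groups thus listed far more Cxcr2 and Cd44 than Cd74. Over the 7 genes of the ligand and receptor list, 6 were tested, 4 were higher and 2 lower, with a median of 0.09.

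Kinases and adaptors downstream of these receptors formed a list of 20 genes, of which 19 were tested and none passed. The difference was positive in 12 and negative in 7, with a median of 0.04. Trp53, whose activity MIF is known to restrain, had the lowest p, with 3.06 and 3.59 FPKM in wild type against 4.70 and 4.85 FPKM in Mif KO libraries (0.42 ± 0.10; limma adjusted p = 0.158). Map2k1, Map2k2 and Akt2 followed with adjusted p of 0.348, 0.374 and 0.405. Of 7 partners in binding or secretion of MIF, 6 were tested, 0 had an unadjusted p under 0.05 in limma and 0 passed, 3 were higher and 3 lower. The lowest p among them belonged to St13, Rps19, Txn1 and Prdx1, with adjusted p of 0.551, 0.633, 0.854 and 0.896.

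Cops5 (ENSMUSG00000025917, chr1:10024601-10038168, minus strand) measured 12.0 and 12.3 FPKM in wild type against 10.6 and 11.3 FPKM in Mif KO libraries, without overlap. The log2 difference was -0.14 ± 0.08 (limma adjusted p = 0.422) and ranged from -0.18 to -0.09 over the alternatives. For the coding transcript Cops5-201 the groups overlapped, with 8.57 and 8.27 FPKM in wild type against 8.70 and 8.23 FPKM in Mif KO libraries (0.01 ± 0.10; adjusted p = 0.973). Its sign turned under rescaling (-0.029 without 7SL and 7SK, -0.015 with median-ratio scaling).

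The 3 retained-intron transcripts of Cops5 summed to 2.54 and 3.07 FPKM in wild type against 1.54 and 2.02 FPKM in Mif KO libraries, a 1.57-fold difference in the means. The largest of them, Cops5-202, stood at 1.41 and 1.92 FPKM against 1.07 and 1.36 FPKM (limma adjusted p = 0.447). Cops5-203 stood at 0.469 and 0.268 FPKM against 0.158 and 0.216 FPKM, and Cops5-207 at 0.661 and 0.876 FPKM against 0.320 and 0.442 FPKM. All 3 had both Mif KO libraries below both wild-type libraries, as had 32% of all transcripts tested, but Cops5-203 and Cops5-207 were too low to test. Of the retained-intron transcripts tested, 87.1% were lower in the Mif KO libraries. The decay-prone transcripts overlapped, with Cops5-204 at 0.861 and 0.569 FPKM against 0.268 and 1.07 FPKM and Cops5-206 at 0 and 0.379 FPKM against 0.0788 and 0 FPKM. Cops5-201 made up 71.5% and 67.1% of the gene in wild-type and 82.0% and 72.7% in Mif KO libraries (log2 ratio difference 0.46; limma adjusted p = 0.390).

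Cops5 overlaps the start of Cspp1 on the opposite strand, which measured 15.2 and 14.2 FPKM in wild type and at 10.7 FPKM in both Mif KO libraries. The strand setting used in counting was not stated, and an exchange of reads between the overlapping genes was not tested.

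The COP9 signalosome to which COPS5 belongs has 10 listed subunit genes, all of them tested. In limma 0 of the 10 passed and 0 had an unadjusted p under 0.05, 6 were higher and 4 lower, with a median of 0.05. The largest difference in size was that of Cops5 itself, followed by Gps1. Among its sister subunits, Cops3 overlapped between the groups, with 14.0 and 14.4 FPKM in wild type against 14.3 and 14.8 FPKM in Mif KO libraries (0.03). Cops8 had both Mif KO libraries below both wild-type libraries, like Cops5, at 15.1 and 15.7 FPKM against 14.0 and 15.0 FPKM (-0.08). Of the 10 subunits, 2 lay below in this way and 3 above (Cops2, Cops4 and Cops7a), against 23.1% and 29.6% of all genes. The differences of the remaining subunits were 0.12 for Gps1, 0.10 for Cops2, 0.06 for Cops4, 0.07 for Cops6, 0.06 for Cops7a, -0.04 for Cops7b and -0.07 for Cops9, listed under its older name Myeov2.

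The NEDD8 pathway that the signalosome opposes was listed with 15 genes, 14 of them tested, of which none passed and 7 were higher and 7 lower, with a median of -0.0046. Ube2f, a NEDD8-conjugating enzyme, measured 20.1 and 18.6 FPKM in wild type against 16.2 and 15.9 FPKM in Mif KO libraries (limma adjusted p = 0.210). Cul2, a cullin scaffold, stood at 2.39 and 2.29 FPKM against 2.83 and 3.04 FPKM (adjusted p = 0.275). Uba3 and Cand1 followed, with adjusted p of 0.325 and 0.424.

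The genes with the nearest pattern to each of the 5 were taken by the root mean square distance between log2(FPKM + 1) profiles over the 4 libraries, each centred on its mean. For Mif they were H2-Ke6 (distance 0.208) and 2 immunoglobulin kappa variable segments, and no gene lay within 0.1. H2-Ke6 measured 2.24 and 3.66 FPKM in wild type against 0.643 and 0.640 FPKM in Mif KO libraries. For Cd74 they were Timm10b (0.0301), Mt1 and Ninj1, with 22 genes within 0.1. Timm10b measured 8.68 and 19.1 FPKM in wild type against 20.4 and 20.5 FPKM in Mif KO libraries, low in wild-type replicate 1 like Cd74. For Ddt they were Eif3g (0.0185), Rnf181 and Dnal4, with 434 genes within 0.1. For Cd44 they were Cul4a (0.0060), Uros and Impa1, with 4449 genes within 0.1, and for Cops5 they were Gm13461 (0.0047), Calr and Hdac4, with 3133 within 0.1. The flat profiles of Cd44 and Cops5 are thus shared by many genes, and with 4 libraries a near profile is a description only.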

How the data were processed

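RNA of the 4 samples had its ribosomal RNA removed, and a stranded kit was used, per the labels' protocols. The authors deposited FPKM per transcript and library, and, per the file headers, a fold (ratio) with a p-value and a q-value for each row. The submitters' processing notes name the build GRCm38 and the tools StringTie 2.1.4, HISAT2 2.1.0, R 3.6.1 and SAMtools 1.9. Annotation, strand setting and multi-mapping rule were not given in the sources used here. Such estimates split reads between overlapping transcripts, which leaves scarce ones uncertain, and an exact 0 can be a failed estimate. The files give no counts, and depth was taken only as relative, from the smallest steps of single-exon genes (values within 2% of 1 step).

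FPKM was summed per gene and analysed as log2(FPKM + 1), which understates changes of low genes. Limma 3.58.1 in R 4.3.3 tested features whose mean reached 1 FPKM in wild type or Mif KO (trended empirical Bayes, 2 against 2 libraries, no covariates), passing at a Benjamini-Hochberg adjusted p under 0.05. An exact permutation test of 2 against 2 cannot go below 0.333. Transcript use was tested with diffSplice (Simes). In simulated data 46.3% of its calls were unchanged genes. After that, limma on the ratio of each transcript to the rest of its gene was added. Positions and sequences were read from GENCODE M21 (GRCm38), where 114237 transcripts and 47224 genes of the files were found. Mif-like copies were found with blastn. Named are the 5 genes, their transcripts of at least 5% of the gene or 0.1 FPKM in a library, up to 4 genes with the lowest p per list, all COP9 subunits, and the 3 nearest patterns per gene. The members and lists were chosen with earlier results of these data known. Cops9 was matched as Myeov2, and the erythroid marker Ahsp matched no name. Protein sequences were not used here.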

Additional observations from a re-analysis of the deposited data

How the results depend on the processing

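The 5 genes kept direction and side of the threshold in 43 of 49 alternatives, and their transcripts in 131 of 138. The exceptions were reversals, of differences near 0 in Cd44 and Cops5-201 and of larger ones in Cd74-201, Cd44-201 and Cd44-207 with 1 library left out, and calls gained by leaving out a wild-type library, after which the lone library is assumed to vary like the Mif KO pair. For Mif the leave-one-out values ran from -1.96 to -1.43, for Ddt from 0.040 to 0.52, for Cd74 from 0.10 to 1.09 and for Cd44 from -0.055 to 0.093. Cd44 was -0.021 after rescaling without 7SL and 7SK and -0.0049 with median-ratio scaling, and Cops5-201 was -0.029 and -0.015. Cops5-201 ran from -0.029 to 0.042 when 1 library was left out, Cd74-201 from -0.18 to 0.90, Cd44-201 from -0.75 to 0.072 and Cd44-207 from -1.21 to 1.76. Adjusted p of the share tests ran from 0.0434 to 0.886 for Cd74 and from 0.0279 to 0.822 for Cd44.

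Genes past the threshold numbered 35, against 15 under either rescaling, 0 without the filter (3032 with an unadjusted p under 0.05 in limma) and 0 to 2938 with 1 library left out. The 0 came without Mif KO replicate 1 (481 with an unadjusted p under 0.05) and without replicate 2 (618), and 2675 and 2938 passed without wild-type replicates 1 and 2. Transcripts past the threshold numbered 47, against 1 without the filter and 0 to 1 with 1 library left out. Without wild-type replicate 1 and Mif KO replicates 1 and 2, where limma called 0, 6006, 1356 and 1610 had an unadjusted p under 0.05. Genes with a diffSplice call numbered 624, against 1595 without the filter, 38 with the ratio test added after seeing the data, and 246 to 1514 with 1 library left out. Deviations of same-numbered libraries did not correlate (r = 0.0065 across 10221 genes), which cannot show whether the libraries were paired. The replicate block changed the call of none of the 5 genes, and with it 34 genes, 1 transcript and 447 diffSplice genes passed. As a share of fragments, the difference of Cd44-202 was -1.46 and that of Cd44-209 -1.76 percentage points, against -1.55 and -3.41 as a share of FPKM. With transcripts of at least 0.1 FPKM in every library alone, that of Ddt-201 was 0, since no other transcript was left. The causes were not tested. The trend setting has no counterpart in diffSplice and was not run there.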
